A study of Mus musculus with 18 samples.

Results

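The mRNAs of 8 enzymes of ammonia disposal were followed here in fasted mouse liver: *Nags*, *Cps1*, *Otc*, *Ass1*, *Asl* and *Arg1*, which activate or carry out the urea cycle, and *Gls2* and *Glud1*, which release ammonia from glutamine and glutamate. The genes were chosen by name, with earlier results of these data known, and all 8 were found among the 54532 genes listed in each of the 2 expression tables. RNA-seq had been performed on livers of male wild-type C57BL/6J mice, 1 library per mouse, from mice placed at 4 wk of age on a vitamin B2-deficient diet (B2D) or a matched isocaloric control diet (Ctrl). In the experiment without fenofibrate, 5 Ctrl and 5 B2D mice had been fed for 1 month and fasted overnight. In the experiment with fenofibrate (FF), a drug that activates the nuclear receptor PPARα, 4 Ctrl+FF and 4 B2D+FF mice had been fed for 9 weeks, received FF in weeks 7 to 9, and were fasted overnight with a last dose 2 hr before harvest. Drug, time on the diet and table change together between the experiments and cannot be told apart, so levels across them are given side by side without a test.

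The urea cycle converts ammonia and bicarbonate into urea, mostly in hepatocytes near the portal vein. Its opening steps lie in mitochondria, where NAGS makes the activator of CPS1, CPS1 forms carbamoyl phosphate and OTC joins it to ornithine. The remaining steps lie in the cytosol, where ASS1, ASL and ARG1 pass the nitrogen through argininosuccinate and arginine to urea. Amino acids broken down for glucose production during fasting deliver the nitrogen.

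Values are FPKM, fragments per kilobase of gene length divided by a per-library factor, and they measure mRNA and not enzyme activity. Reads assigned to genes ranged from 15320729 to 21898502 per library. Pairs of libraries within a group correlated at 0.955 to 0.989 across genes, and no 2 libraries of the same group were identical. The factor, as the steps between values give it, was not the number of reads assigned to genes: it was 17069375 against 15320729 reads in B2D mouse 2, 20340835 against 18505088 in B2D+FF mouse 2 and 20495390 against 21898502 in B2D+FF mouse 4. All 8 genes passed the filter of a mean of at least 0.5 FPKM in both tables, and *Nags*, with 644 to 1366 reads per library, was the least abundant. The hepatocyte marker *Alb*, which encodes albumin, averaged 12138 to 25073 FPKM in the 4 groups, and the summed level of 6 pancreatic acinar markers was at most 0.287 FPKM in any library. In bulk liver, fewer cells of a type and less RNA per cell cannot be told apart.

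Under fenofibrate, the mRNAs of the 3 cytosolic enzymes rose on B2D: *Ass1* by 1.68-fold, *Asl* by 2.21-fold and *Arg1* by 1.55-fold (limma adjusted p = 0.0455, 0.0277 and 0.0327). These calls were not stable: 0 of the 3 passed without the filter on low values, 1 (*Asl*) with upper-quartile scaling or all groups in 1 fit, and 0 when Ctrl+FF mouse 1, 2 or 4 or B2D+FF mouse 1, 3 or 4 was left out. None of the 8 genes passed the adjusted threshold of 0.05 without fenofibrate, where the genes nearest to it were *Otc*, lower in B2D, and *Cps1*, higher in B2D. *Cps1* and *Otc*, which act in sequence in the mitochondrion, passed in neither experiment, with log2 differences of 0.55 and -0.65 without fenofibrate and 0.66 and -0.81 with it (limma adjusted p = 0.0854, 0.0621, 0.0935 and 0.114). The ratio of *Cps1* to *Otc* FPKM, chosen after the values were seen and given without a test, was 11.2 ± 3.18 in Ctrl and 25.5 ± 5.16 in B2D mice (SD, n = 5 each). With fenofibrate it was 9.56 ± 1.41 in Ctrl+FF and 29.4 ± 16.4 in B2D+FF mice (SD, n = 4 each).

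In the B2D against Ctrl comparison, 313 of 11574 genes passed the threshold, 2.7% of those tested, and 0 of the 8 members did. At an unadjusted p under 0.05 stood 2124 genes, and *Cps1* and *Otc* were the members among them. The groups did not overlap for 576 genes, 4.98% of those tested, and they overlapped for all 8 members. In B2D 4 members were higher and 4 lower, and the median of their log2 fold changes was -0.07, against 0.00 for all genes (the ratio is of FPKM + 1, which understates the change of low genes). With fenofibrate, 529 of 11878 genes passed, 4.45% of those tested, and 3 of the 8 members did, all of them higher in B2D+FF. Groups that did not overlap were found for 1694 genes, 14.3% of those tested, and for 5 members: *Ass1*, *Asl*, *Arg1* and *Glud1* were higher and *Otc* was lower in each B2D+FF mouse than in any Ctrl+FF mouse. The members' median log2 fold change there was 0.43, against 0.01 for all genes. Because the 8 genes were chosen with earlier results of these data known, the shares of all genes are not an independent yardstick.

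**Figure D1:**
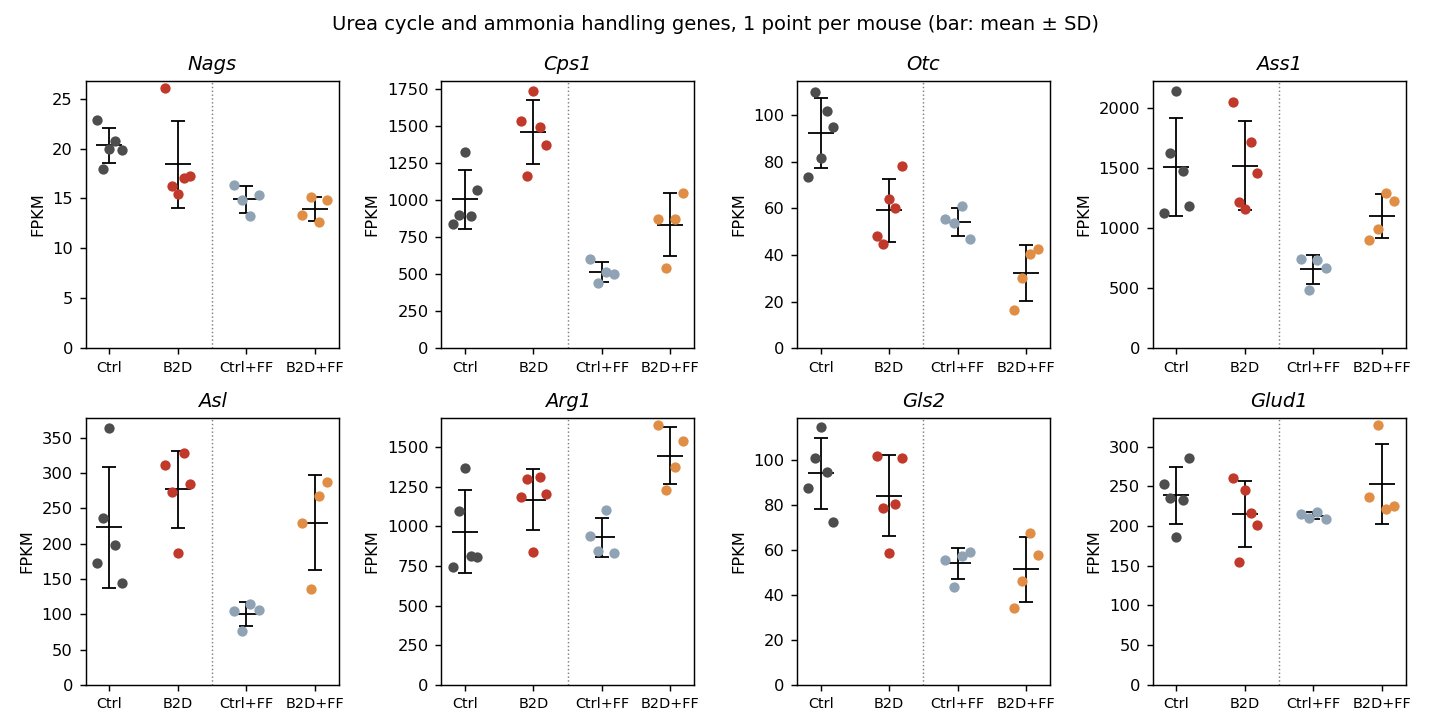
FPKM of each of the 8 genes in the 18 mice, 1 panel per gene with FPKM on a linear axis from 0; points are mice, bars are the mean ± SD, and the dotted line separates the 2 experiments. The Ass1, Asl and Arg1 points of B2D+FF all lie above those of Ctrl+FF, and the Otc points lie lower on B2D in both experiments, with overlap at 78.4 and 73.3 FPKM without fenofibrate.

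*Nags* (ENSMUSG00000048217, chr11:102145513-102149477 on GRCm38, plus strand) encodes the synthase of N-acetylglutamate, without which CPS1 is inactive. *Nags* was listed at 22.9, 18, 20.0, 20.8 and 19.9 FPKM in Ctrl mice 1 to 5 and at 26.1, 16.3, 15.4, 17.1 and 17.3 FPKM in B2D mice 1 to 5. With fenofibrate the levels were 16.4, 14.8, 13.2 and 15.3 FPKM in Ctrl+FF and 13.3, 15.1, 12.6 and 14.8 FPKM in B2D+FF mice. B2D mouse 1 was above all Ctrl mice while the other 4 were below all of them, and the fenofibrate groups overlapped. The log2 difference was -0.15 without fenofibrate (95% interval -0.45 to 0.14, limma adjusted p = 0.58) and -0.09 with it (-0.30 to 0.12, adjusted p = 0.635). An antisense gene, *Gm11586*, overlaps *Nags* and reached at most 0.864 and 1.55 FPKM in the 2 tables. Whether reads were counted by strand is not given in the sources used here, so reads of the overlap cannot be told apart.

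*Cps1* (ENSMUSG00000025991, chr1:67123026-67231259, plus strand) encodes the rate-limiting carbamoyl phosphate synthetase. *Cps1* was listed at 840.0, 903, 1326, 895 and 1068 FPKM in the Ctrl and 1533, 1162, 1741, 1497 and 1374 FPKM in the B2D mice. Ctrl mouse 3 was the only Ctrl mouse that reached into the B2D range, above B2D mouse 2. The mean was 1007 ± 198 in Ctrl and 1461 ± 213 FPKM in B2D (SD, n = 5 each), a 1.46-fold difference with a log2 value of 0.55 (SE 0.15). The limma adjusted p was 0.0854, and the exact permutation p, two-sided and unadjusted, was 0.0159. Of 10 fits that left out 1 mouse, only that without Ctrl mouse 3 passed the threshold (adjusted p 0.0332 to 0.208 over the 10).

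With fenofibrate *Cps1* stood at 601, 440.0, 518 and 503 FPKM in Ctrl+FF and at 875, 539, 874 and 1046 FPKM in B2D+FF mice. B2D+FF mouse 2 lay inside the control range and the other 3 lay above it. The difference was 1.58-fold, with a log2 value of 0.66 (SE 0.20, adjusted p = 0.0935, exact permutation p = 0.0571). Of 8 fits that left out 1 mouse, only that without B2D+FF mouse 2 passed the threshold (adjusted p 0.0134 to 0.234 over the 8).

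*Otc* (ENSMUSG00000031173, chrX:10252305-10321024, plus strand) encodes ornithine transcarbamylase, which makes citrulline. *Otc* was listed at 73.3, 110.0, 81.6, 102 and 94.9 FPKM in Ctrl mice and at 48.2, 44.7, 64.1, 60.2 and 78.4 FPKM in B2D mice. B2D mouse 5 alone reached into the Ctrl range. Mean levels were 92.4 ± 14.9 and 59.1 ± 13.4 FPKM (SD, n = 5 each), with a log2 difference of -0.65 (SE 0.17) and a ratio of 0.638. The limma adjusted p was 0.0621, with an exact permutation p of 0.0159. Of 10 fits that left out 1 mouse, only that without B2D mouse 5 passed the threshold (adjusted p 0.0344 to 0.164 over the 10).

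Under fenofibrate *Otc* stood at 55.6, 53.6, 61.2 and 46.8 FPKM in Ctrl+FF and at 16.3, 30.0, 40.5 and 42.6 FPKM in B2D+FF mice. All 4 B2D+FF values were below the lowest Ctrl+FF value, and B2D+FF mouse 1 was the lowest of all 18 mice. The log2 difference was -0.81 (SE 0.26), a ratio of 0.57, with a limma adjusted p of 0.114 (exact permutation p = 0.0286, which is the lowest possible with 4 mice against 4). Without B2D+FF mouse 1 the log2 difference was -0.52 (adjusted p = 0.101). The wide spread within B2D+FF, a coefficient of variation of 37.2%, was the largest of any member in any group apart from *Asl* in Ctrl at 38.4%.

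**Figure D2:**
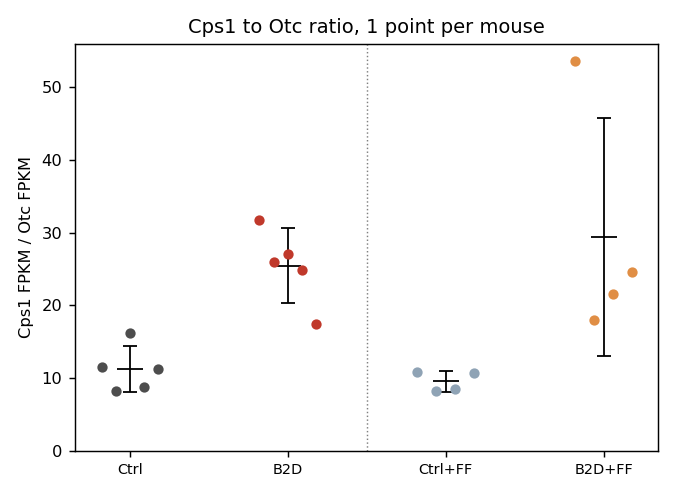
Ratio of Cps1 FPKM to Otc FPKM in each mouse on a linear axis from 0; points are mice, bars are the mean ± SD, and the dotted line separates the experiments. Ctrl mice lie at 8.24 to 16.2 and B2D mice at 17.5 to 31.8, Ctrl+FF mice at 8.21 to 10.8 and B2D+FF mice at 18 to 53.7.

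The *Cps1* to *Otc* ratio, picked after the values were seen, did not overlap between diets in either experiment. It divides a gene that was higher on B2D by one that was lower, so the separation follows in part from that choice. The share of other gene pairs that separate as well was not computed. Its highest value, 53.7, came from B2D+FF mouse 1, where *Otc* was lowest and *Cps1* was at 875 FPKM.

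*Ass1* (ENSMUSG00000076441, chr2:31470207-31520672, plus strand) encodes argininosuccinate synthetase, which joins citrulline to aspartate. It has a near-identical copy, *Gm5424* (ENSMUSG00000046687), a processed pseudogene at chr10:62071123-62072362. In the GENCODE transcripts of the same build, 1233 of the 1239 bases of the *Ass1* coding sequence were identical in *Gm5424*, with 0 gap bases, and the longest run without a difference was 398 bases. The 6 substitutions, counted from 1 at the first base of the *Ass1* coding sequence with the *Ass1* base first, were T399C, T429C, A520T, G656C, T1011C and C1143T. The 120 bases from position 361 to 480 hold 2 of them and are shown because a read that covers none of the differing bases, which are in capitals, is the same from both loci.
Ass1: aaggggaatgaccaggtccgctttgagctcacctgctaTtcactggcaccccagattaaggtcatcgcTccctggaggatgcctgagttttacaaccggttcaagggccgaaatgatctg
Gm5424: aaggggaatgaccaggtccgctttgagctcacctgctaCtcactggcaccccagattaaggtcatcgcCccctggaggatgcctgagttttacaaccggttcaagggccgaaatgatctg

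The tables divided these reads differently. *Gm5424* averaged 16.6 ± 4.45 FPKM in Ctrl and 19.1 ± 5.10 FPKM in B2D mice (SD, n = 5 each), and held 0.505% to 0.691% of the reads on both genes. In the fenofibrate table it averaged 266 ± 43.7 FPKM in Ctrl+FF and 420.0 ± 62.5 FPKM in B2D+FF mice (SD, n = 4 each), and held 16.0% to 17.9% of those reads. Processed pseudogenes as a class took 0.043% to 0.0543% of all reads in the libraries without fenofibrate and 0.346% to 0.478% in those with it. How reads that fit several loci were handled is not given in the sources used here, and the part of read assignment in the *Ass1* levels of the 2 tables was not tested.

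*Ass1* was listed at 1129, 1626, 2141, 1478 and 1181 FPKM in Ctrl and at 2049, 1218, 1156, 1717 and 1460 FPKM in B2D mice. The groups covered nearly the same range, and the log2 difference of 0.01 had a 95% interval of -0.43 to 0.46 (limma adjusted p = 0.977). With fenofibrate *Ass1* stood at 742, 480.0, 737 and 665 FPKM in Ctrl+FF and at 897, 995, 1288 and 1222 FPKM in B2D+FF mice. Every B2D+FF mouse was above every Ctrl+FF mouse. The log2 difference was 0.75 (SE 0.17, limma adjusted p = 0.0455), and none of the 8 fits that left out 1 mouse kept *Ass1* past the threshold (adjusted p 0.0519 to 0.107).

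With the reads of *Gm5424* added to *Ass1*, an alternative chosen after the data were seen, the levels were 893, 584, 883 and 810.0 FPKM in Ctrl+FF and 1085, 1184, 1538 and 1460.0 FPKM in B2D+FF mice. The groups again did not overlap, and the log2 difference was 0.74 (limma adjusted p = 0.0461). The summed mean was 1520.0 ± 410.0 in Ctrl, 1530.0 ± 372 in B2D, 792 ± 144 in Ctrl+FF and 1317 ± 217 FPKM in B2D+FF mice (SD). For *Ass1* alone the means were 1511 ± 408, 1520.0 ± 369, 656 ± 122 and 1101 ± 185 FPKM.

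**Figure D3:**
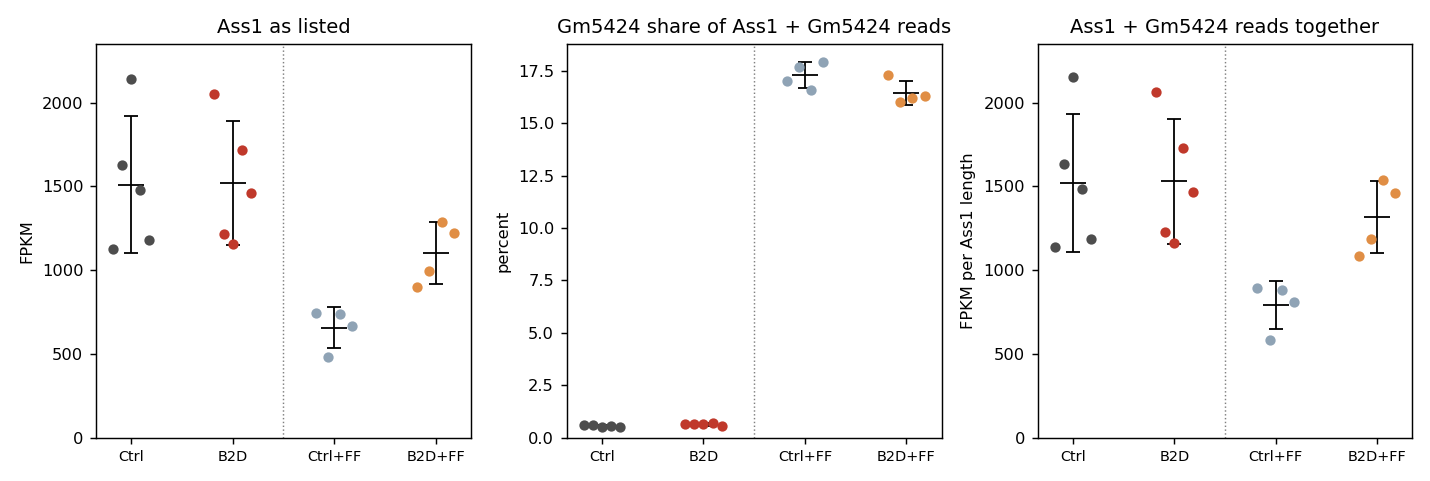
Ass1 FPKM as listed (left), the percent of Ass1 and Gm5424 reads that were assigned to Gm5424 (middle), and the FPKM of both sets of reads per Ass1 length (right), each on a linear axis from 0; points are mice and bars are the mean ± SD. The Gm5424 share is under 1% in the 10 mice without fenofibrate and 16.0% to 17.9% in the 8 mice with it, and B2D+FF lies above Ctrl+FF in both outer panels.

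*Asl* (ENSMUSG00000025533, chr5:130011258-130029247, minus strand) encodes argininosuccinate lyase, which releases arginine and fumarate. *Asl* was listed at 173, 237, 364, 198 and 144 FPKM in Ctrl and at 312, 273, 187, 328 and 284 FPKM in B2D mice. Ctrl mouse 3 was the highest of all, and the other 4 Ctrl mice were below every B2D mouse but mouse 3. The log2 difference of 0.36 had a 95% interval of -0.15 to 0.87 (limma adjusted p = 0.433). With fenofibrate the levels were 105, 76.4, 115 and 106 FPKM in Ctrl+FF and 229, 136, 267 and 287 FPKM in B2D+FF mice. The groups did not overlap, and B2D+FF mouse 2 was nearest to the controls. *Asl* showed the largest fold change of the 8 genes in either experiment, a log2 difference of 1.14 (SE 0.23, limma adjusted p = 0.0277). It kept the threshold in 1 of 8 fits that left out 1 mouse, that without B2D+FF mouse 2, where the adjusted p was 0.0055. In the other 7 the adjusted p reached up to 0.0856.

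*Arg1* (ENSMUSG00000019987, chr10:24915221-24927484, minus strand) encodes liver arginase, which splits arginine into urea and ornithine. *Arg1* was listed at 745, 1097, 1369, 813 and 805 FPKM in Ctrl and at 1187, 1298, 836, 1310.0 and 1202 FPKM in B2D mice. B2D mice 1, 2, 4 and 5 lay together at 1187 to 1310.0 FPKM, above every Ctrl mouse but mouse 3. The log2 difference of 0.29 had a 95% interval of -0.12 to 0.70 (limma adjusted p = 0.422). With fenofibrate the levels were 937, 846, 1104 and 834 FPKM in Ctrl+FF and 1638, 1230.0, 1376 and 1537 FPKM in B2D+FF mice. The groups did not overlap, with a gap from 1104 to 1230.0 FPKM. The log2 difference was 0.64 (SE 0.14, limma adjusted p = 0.0327), and it held in 2 of 8 fits that left out 1 mouse, those without Ctrl+FF mouse 3 and without B2D+FF mouse 2 (adjusted p 0.0243 to 0.106 over the 8).

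*Gls2* (ENSMUSG00000044005, chr10:128194457-128210004, plus strand) encodes the glutaminase of adult hepatocytes. *Gls2* was listed at 87.6, 101, 115, 95 and 72.4 FPKM in Ctrl and at 102, 78.6, 58.6, 80.8 and 101 FPKM in B2D mice. With fenofibrate the levels were 55.7, 43.7, 57.5 and 59.4 FPKM in Ctrl+FF and 34.2, 46.4, 67.7 and 57.8 FPKM in B2D+FF mice. The diets overlapped widely in both experiments, with log2 differences of -0.17 (95% interval -0.54 to 0.19, limma adjusted p = 0.615) and -0.10 (-0.55 to 0.34, adjusted p = 0.812). *Spryd4*, on the opposite strand, overlaps *Gls2* and reached 25.0 and 25.8 FPKM in the 2 tables, and the reads they share cannot be told apart.

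*Glud1* (ENSMUSG00000021794, chr14:34310727-34345265, plus strand) encodes glutamate dehydrogenase, which frees ammonia from glutamate in mitochondria. *Glud1* was listed at 253, 236, 186, 233 and 286 FPKM in Ctrl and at 261, 155, 245, 216 and 201 FPKM in B2D mice. With fenofibrate the levels were 215, 210.0, 218 and 209 FPKM in Ctrl+FF and 237, 328, 221 and 226 FPKM in B2D+FF mice. The groups overlapped without fenofibrate. With it the B2D+FF mice lay just above a tight control group, and mouse 2 stood apart. The log2 differences were -0.15 (95% interval -0.50 to 0.19, limma adjusted p = 0.634) and 0.23 (-0.07 to 0.52, adjusted p = 0.359). A pseudogene that shares stretches of 50 bases with *Glud1*, *Glud-ps*, was at most 0.263 FPKM without and 8.23 FPKM with fenofibrate. Adding the reads of *Glud-ps* left the log2 difference with fenofibrate at 0.23. Another gene with such stretches, at most 0.587 FPKM without and 0.166 FPKM with fenofibrate, was not added.

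**Figure D4:**
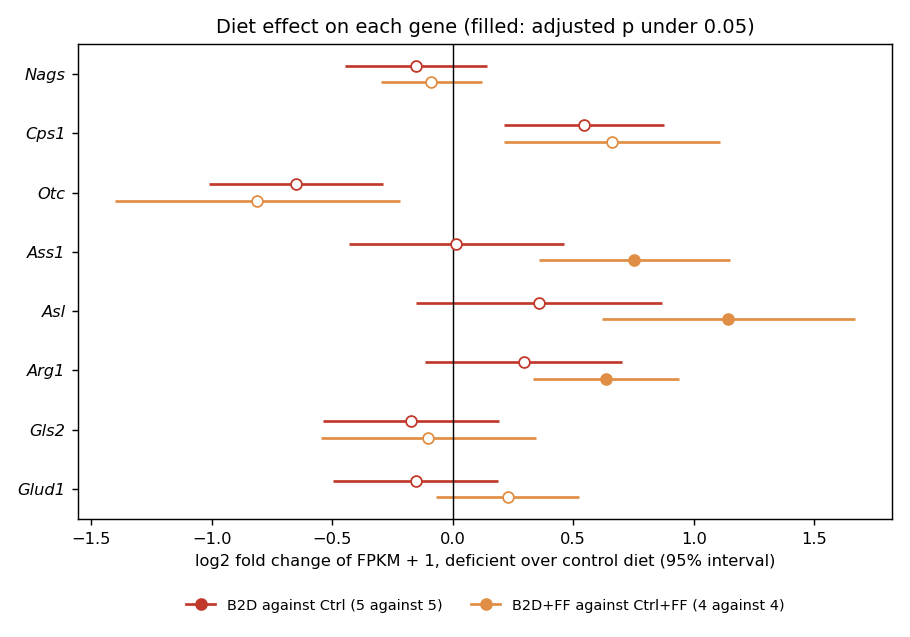
Log2 fold change of FPKM + 1 of each gene, deficient over control diet, with its 95% interval, in the experiment without (red) and with (orange) fenofibrate; filled points passed the adjusted p of 0.05 in limma. Only Ass1, Asl and Arg1 with fenofibrate are filled, and Cps1 and Otc lie on opposite sides of 0 in both experiments.

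To ask whether the diet effect differed between the experiments, the difference of both effects was estimated from the 18 libraries together. Drug, time on the diet and table change together in this contrast, so it is not a test of fenofibrate alone. Of 11031 genes tested, 16 passed the threshold, 0.145%, and 0 of the 8 members did, while 1313 genes had an unadjusted p under 0.05. *Ass1* had the smallest unadjusted p of the members, 0.0203, with a log2 difference between the diet effects of 0.74 (95% interval 0.13 to 1.34, limma adjusted p = 0.321). For *Asl* the difference was 0.79 (0.04 to 1.53, adjusted p = 0.391). The other 6 had adjusted p values of 0.491 to 0.943, and *Cps1* and *Otc* had differences of 0.12 (-0.41 to 0.65) and -0.16 (-0.82 to 0.50). A rise in the experiment with fenofibrate and its absence in the experiment without it are therefore not shown to differ for *Ass1*, *Asl* or *Arg1*. In simulated counts, with the same spread set for every gene, this contrast recovered 52% of genes with a log2 change of 1. A missing call therefore does not show equal effects.

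By mean FPKM, a level per length, the genes fell into the same tiers in all 4 groups. *Ass1*, *Cps1* and *Arg1* led, *Glud1* and *Asl* followed, *Gls2* and *Otc* came next, and *Nags* was lowest, at 14 to 20.3 FPKM on average. Without fenofibrate the ranges of *Ass1* and *Cps1*, of *Cps1* and *Arg1*, of *Glud1* and *Asl*, and of *Gls2* and *Otc* overlapped, so the order within those pairs is not resolved. With fenofibrate *Arg1* had the highest mean. In B2D+FF its range overlapped that of *Ass1*, which in turn overlapped that of *Cps1*, so their order is not resolved. In Ctrl+FF its lowest value, 834 FPKM, lay above the highest listed *Ass1* value, 742 FPKM, but below 893 FPKM, the highest value of *Ass1* with the reads of *Gm5424*. Together the 8 genes took 1.21% to 1.96% of reads in Ctrl, 1.64% to 1.93% in B2D, 0.724% to 0.909% in Ctrl+FF and 1.15% to 1.40% in B2D+FF mice.

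Several members had their highest or lowest value in the same mouse. Ctrl mouse 3 had the highest *Cps1*, *Ass1*, *Asl*, *Arg1* and *Gls2* of the Ctrl mice, and B2D mouse 3 had the lowest *Nags*, *Ass1*, *Asl*, *Arg1* and *Gls2* but the highest *Cps1* of the B2D mice. Ctrl+FF mouse 2 had the lowest *Cps1*, *Ass1*, *Asl* and *Gls2*. Likeness was measured as the root-mean-square difference of z-scores over the 18 libraries, where 0 is identical. *Arg1* and *Asl* were the closest pair of members at 0.356, followed by *Asl* and *Ass1* at 0.514, and *Otc* was the member farthest from the mean profile at 1.36. *Ass1* was nearest to the mean profile at 0.283. *Nags*, *Glud1* and *Otc* ranked only 2570, 3772 and 6759 among 11031 genes, so the profile does not describe all 8. Outside the 8, genes near to that profile among 11031 were *Gm5424* (0.48), whose reads are shared with *Ass1*, *Ahcy* (0.501), *Wdr36* (0.536) and the antisense gene *Gm28857* (0.64). *Ahcy* encodes the enzyme that hydrolyses S-adenosylhomocysteine. The libraries share depth and normalization within a table, and likeness is given as a description.

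Carriers and helper enzymes of the mitochondrial steps included *Car5a*. It encodes the mitochondrial carbonic anhydrase that supplies bicarbonate to CPS1. *Car5a* was listed at 35.6, 35.9, 27.0, 40.2 and 29.3 FPKM in Ctrl and at 10.6, 8.23, 6.98, 12.7 and 17.4 FPKM in B2D mice. The highest B2D value lay below the lowest Ctrl value. *Car5a* fell by 1.56 on the log2 scale (SE 0.21, limma adjusted p = 0.00484), and it passed in all 10 fits that left out 1 mouse. With fenofibrate it stood at 28.4, 20.2, 26.9 and 21.2 FPKM in Ctrl+FF and at 2.19, 13.5, 15.5 and 11.6 FPKM in B2D+FF mice, again without overlap, with a log2 difference of -1.33 (SE 0.46, adjusted p = 0.133). Without B2D+FF mouse 1, a fit added after the data were seen, the log2 difference of *Car5a* was -0.79 (limma adjusted p = 0.0374). That was the only 1 of 16 alternative fits with fenofibrate in which *Car5a* passed (adjusted p up to 0.277). B2D+FF mouse 1, which had the lowest *Otc*, also had the lowest *Car5a*.

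Of the 7 carrier and helper genes tested, 2 fell and 0 rose without fenofibrate, and 0 fell and 1 rose with it, with median log2 fold changes of 0.00 and -0.11. Beside this list and those below, 2.7% of all genes tested passed without fenofibrate and 4.45% with it. The medians of all genes were -0.001 and 0.013. The lists were chosen with earlier results of these data known and were not tested as sets. *Slc25a13*, the aspartate-glutamate carrier of liver that brings aspartate to ASS1, fell from 124 ± 3.67 to 90.3 ± 10.7 FPKM in B2D (SD, n = 5 each, limma adjusted p = 0.038). The groups did not overlap, but only the fit without B2D mouse 3 kept it past the threshold among 10 that left out 1 mouse (adjusted p 0.0483 to 0.109), and the call was lost without the filter (adjusted p = 0.068) and with quantile normalization (adjusted p = 0.11). *Slc25a13* with fenofibrate was 87.5 ± 4.71 in Ctrl+FF and 82.5 ± 17.6 FPKM in B2D+FF mice (SD, n = 4 each, adjusted p = 0.722). Its low-level paralog *Slc25a12* rose from 1.88 ± 0.173 to 3.06 ± 0.316 FPKM in B2D+FF (SD, n = 4 each, adjusted p = 0.014), a call lost without Ctrl+FF mouse 2 (adjusted p = 0.0551). *Slc25a15*, the ornithine carrier of the cycle, differed by 0.03 (adjusted p = 0.934) and 0.14 (adjusted p = 0.677) on the log2 scale.

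**Figure D5:**
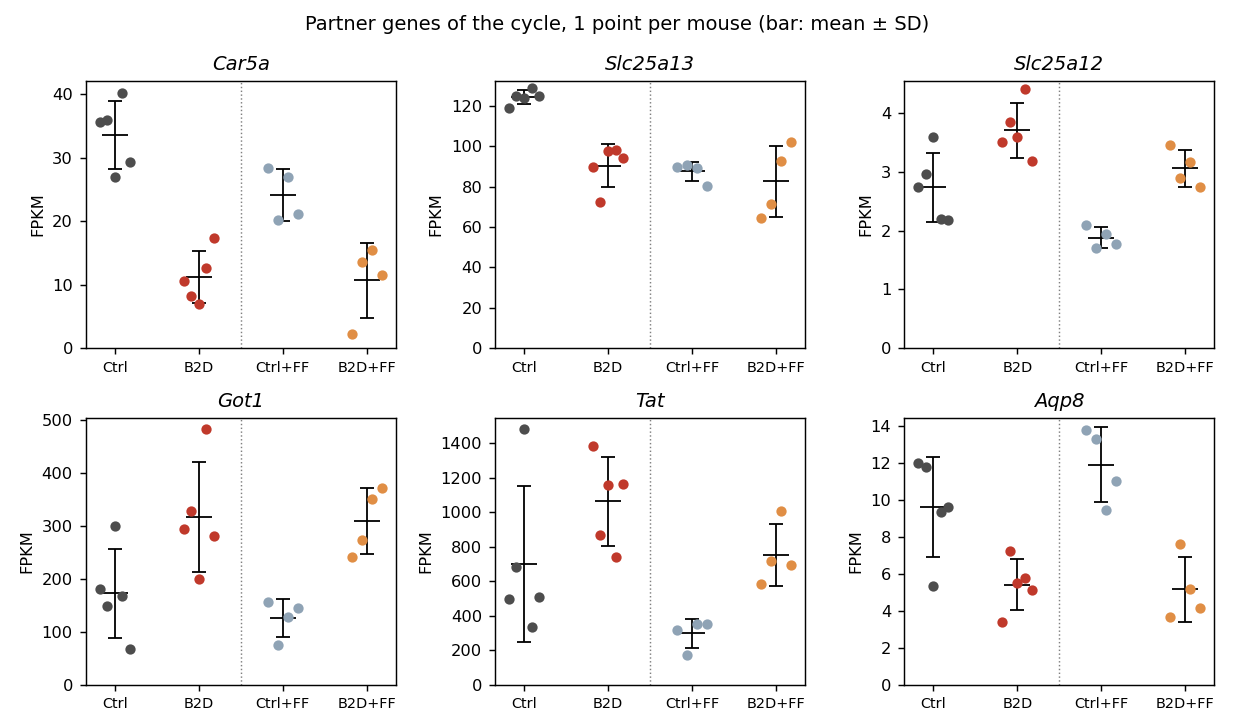
FPKM of 6 partner genes of the cycle in the 18 mice, 1 panel per gene on a linear axis from 0; points are mice, bars are the mean ± SD, and the dotted line separates the experiments. Car5a lies lower on B2D in both experiments without overlap, at 6.98 to 17.4 FPKM in B2D against 27.0 to 40.2 in Ctrl, and the B2D+FF points of Got1 and Tat lie above those of Ctrl+FF.

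Of 13 transaminases and other ammonia-releasing enzymes tested, 4 rose and 0 fell in B2D+FF, and 12 of 13 had a positive fold change, with a median log2 value of 0.47. Without fenofibrate 0 passed, 11 of 13 were positive and the median was 0.28. Of all genes tested, 4.45% passed with fenofibrate, and how many were positive was not counted. *Got1*, the cytosolic aspartate transaminase, was at 157, 75.8, 128 and 145 FPKM in Ctrl+FF and at 241, 274, 350.0 and 372 FPKM in B2D+FF mice. The groups did not overlap, and *Got1* rose by 1.31 on the log2 scale (SE 0.24, limma adjusted p = 0.0179) and passed in all 8 fits that left out 1 mouse, but not without the filter on low values (adjusted p = 0.0545). Without fenofibrate *Got1* was 173 ± 83.7 in Ctrl and 317 ± 104 FPKM in B2D mice (SD, n = 5 each, adjusted p = 0.16).

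*Tat*, tyrosine aminotransferase, rose from 299 ± 84.6 to 751 ± 181 FPKM in B2D+FF (SD, n = 4 each, limma adjusted p = 0.0188), a call lost without Ctrl+FF mouse 1 or without the filter (adjusted p = 0.0577 and 0.0608). *Gldc*, a subunit of the glycine cleavage system, which releases ammonia, rose from 39.6 ± 2.34 to 59.5 ± 4.11 FPKM (adjusted p = 0.00989) and passed in all 8 such fits, but not with all groups in 1 fit (adjusted p = 0.0704). *Gpt2*, the mitochondrial alanine transaminase, rose from 128 ± 6.36 to 190.0 ± 26.4 FPKM (adjusted p = 0.0277), a call that only the fits without B2D+FF mouse 1 or 2 kept among those that left out 1 mouse, and that was lost without the filter (adjusted p = 0.0566). Its cytosolic counterpart *Gpt* was 116 ± 21.1 in Ctrl and 93.7 ± 17.5 FPKM in B2D mice (adjusted p = 0.338), and 136 ± 10.6 in Ctrl+FF and 157 ± 13.3 FPKM in B2D+FF mice (adjusted p = 0.27).

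The glutamine and arginine sides of the pathway showed few calls. Among 7 genes of glutamine synthesis, breakdown and transport, 0 passed without fenofibrate (median log2 fold change -0.26) and 1 fell with it (median -0.07). That gene was *Kyat1*, a glutamine transaminase, at 31.6 ± 3.33 in Ctrl+FF and 22.6 ± 0.74 FPKM in B2D+FF mice (SD, n = 4 each, limma adjusted p = 0.0258). It kept the threshold in 3 of 8 fits that left out 1 mouse, those without Ctrl+FF mouse 2 or B2D+FF mouse 2 or 3, and was lost with all groups in 1 fit (adjusted p = 0.158). *Glul*, the glutamine synthetase of pericentral hepatocytes, was 318 ± 82.9, 265 ± 65.8, 233 ± 36.3 and 212 ± 18.7 FPKM in Ctrl, B2D, Ctrl+FF and B2D+FF mice, with adjusted p values of 0.52 and 0.622. The mitochondrial arginase *Arg2* averaged 0.125 to 0.396 FPKM, below the filter, against 930.0 to 1445 FPKM for *Arg1*. Of 5 arginine and ornithine genes tested, 0 passed in either experiment (median -0.03 and 0.08).

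Among 3 urea and ammonia transport genes, 0 passed without fenofibrate (median log2 fold change -0.29) and 1 fell with it (median -0.35). *Aqp8*, a channel that passes water and ammonia, fell from 11.9 ± 2.00 to 5.16 ± 1.76 FPKM in B2D+FF (SD, n = 4 each, limma adjusted p = 0.017), a call lost without Ctrl+FF mouse 1 or 2 or without the filter (adjusted p = 0.0594, 0.062 and 0.0517). *Aqp9*, a urea and glycerol channel, differed by -0.09 (adjusted p = 0.726) and -0.04 (adjusted p = 0.884) on the log2 scale.

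Of 10 regulators listed for the urea cycle and fasting, 0 passed without fenofibrate (median log2 fold change -0.11), and 2 fell and 0 rose with it (median 0.13). Whether past the threshold or not, 6 of the 10 were higher and 4 lower in B2D+FF. *Cebpa*, a transcription factor known to drive urea cycle genes, fell from 95.7 ± 5.6 to 64.3 ± 8.67 FPKM (SD, n = 4 each, limma adjusted p = 0.0205). *Onecut1*, also called HNF6, fell from 3.31 ± 0.535 to 1.35 ± 0.597 FPKM (adjusted p = 0.0203). Each was lost in 4 of 8 fits that left out 1 mouse, with Ctrl+FF mouse 1 and B2D+FF mice 1 and 4 among them for both, Ctrl+FF mouse 2 for *Cebpa* (adjusted p up to 0.0775) and Ctrl+FF mouse 3 for *Onecut1* (up to 0.0677). Both were lost with all groups in 1 fit (adjusted p = 0.198 and 0.0746), and *Onecut1* also without the filter (adjusted p = 0.0621). *Ppara*, the receptor that fenofibrate activates, was 47.3 ± 3.29 in Ctrl and 46.7 ± 7.60 FPKM in B2D mice (adjusted p = 0.921), and 55.3 ± 3.17 in Ctrl+FF and 45.2 ± 7.05 FPKM in B2D+FF mice (adjusted p = 0.185).

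The cycle runs mostly in the periportal zone of the liver. Of 10 periportal markers, 1 fell without fenofibrate (*Cyp2f2*, limma adjusted p = 0.00557), and 1 fell and 1 rose with it (*Uox*, adjusted p = 0.0421, and *Pck1*, adjusted p = 0.0407), with median log2 fold changes of -0.24 and -0.14. *Pck1*, which encodes the gluconeogenic enzyme PEPCK, went from 542 ± 104 to 975 ± 220 FPKM in B2D+FF (SD, n = 4 each). *Cyp2f2* passed in all 10 fits without fenofibrate that left out 1 mouse. With fenofibrate it was 209 ± 23.0 in Ctrl+FF and 130 ± 36.5 FPKM in B2D+FF mice, without overlap (limma adjusted p = 0.0871). *Uox* and *Pck1* passed in 2 of 8 such fits each (adjusted p up to 0.124 and 0.114), and both were lost without the filter (adjusted p = 0.0896 and 0.112). The summed FPKM of the 10 ranged from 2250 to 2948 in Ctrl, 1922 to 2786 in B2D, 1220 to 1551 in Ctrl+FF and 1382 to 2058 in B2D+FF mice, and none was at 0 throughout a group. Of 9 pericentral markers tested, 0 passed without fenofibrate and 1 fell with it (*Rgn*, adjusted p = 0.0094, passing in all 8 such fits), with medians of -0.30 and -0.15.

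Other cell types were measured as lists too. Of 8 Kupffer cell and macrophage markers, 1 fell without fenofibrate (*Clec4f*, limma adjusted p = 0.0412) and 0 passed with it. Of 6 endothelial markers 0 passed without fenofibrate and 1 rose with it (*Lyve1*, limma adjusted p = 0.0294). *Lyve1* was the only 1 of the 6 that was higher in B2D+FF, and 5 were lower, with a median log2 fold change of -0.08. *Clec4f* passed in 1 of 10 fits that left out 1 mouse (adjusted p up to 0.118) and *Lyve1* in 4 of 8 (up to 0.0951), and both were lost without the filter (adjusted p = 0.0812 and 0.08). Among the tested hepatocyte, stellate cell, cholangiocyte, and lymphocyte and neutrophil markers 0 passed in either experiment. Summed Kupffer cell markers ranged from 81.1 to 104 FPKM in Ctrl, 62.9 to 96.5 in B2D, 68.2 to 118 in Ctrl+FF and 43.0 to 107 in B2D+FF mice. The part of zone or cell type in the levels of the 8 genes was not tested.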

How the data were processed

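Liver mRNA of 18 mice was measured by RNA-seq. By their methods and processing notes, the authors mapped paired reads to mm10 with STAR, assigned them to genes with featureCounts, ran DESeq2, and deposited 1 FPKM table per experiment (RPKM in their methods). Tool versions are not given in the sources used here. Nearly every value (99.96% to 99.99% per library), once multiplied by gene length, was a whole multiple of a step of its own library (tolerance 0.05 of a step). The step was taken as 1 read, which gave the reads and the depth.

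The FPKM values entered limma 3.58.1 (R 4.3.3) as log2(FPKM + 1), after a filter that kept genes averaging 0.5 FPKM or more. Fits were moderated with a variance trend, each table alone, and p-values were adjusted over all genes by Benjamini-Hochberg at 0.05. The difference of diet effects was a contrast in 1 fit of 18 libraries. Exact permutation tests, two-sided and unadjusted, used all relabellings of the mice. The fits were tested on simulated counts with a log2 change of 1 in 194 to 196 of the genes tested. They recovered 89.2% of these without fenofibrate, 83% with it and 52% for the difference of diet effects. Median estimates were 0.774, 0.73 and 0.811, with 12, 19 and 2 false calls.

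The 8 genes, 6 pathway lists, 9 marker lists and tests were chosen with earlier results of these data known. Named were all 8 genes, up to 5 genes past the threshold per pathway list, set genes (*Glul*, *Arg2*, *Slc25a15*, *Slc25a13*, *Car5a*, *Aqp9*, *Got1*, *Gpt*, *Ppara*), and the 5 nearest genes by profile (1 set gene and 1 near gene are not reported here); markers past the threshold and *Gm5424*, *Glud-ps* and the ratios were named after their values were seen. *Gm5424* was compared with *Ass1* by global alignment of GENCODE M21 transcripts (GRCm38), and shared stretches of 50 bases were searched in all transcripts. The analyses were repeated with 0.1 as pseudocount, without a filter or with one of 5 FPKM, and with upper-quartile and quantile scaling, array weights, all groups in 1 fit, limma voom, each mouse left out, and copies' reads added. P-values measure the spread between mice, which were numbered in order of accession.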

Additional observations from a re-analysis of the deposited data

Results flagged for a closer look

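In all, 3 values stood far from the rest of their group by Dixon's criterion, in 32 groups of values looked at, where chance flags about 1 in 20. *Nags* was 26.1 FPKM in B2D mouse 1, against 15.4 to 17.3 in the other 4. *Arg1* was 836 FPKM in B2D mouse 3, against 1187 to 1310.0 in the other 4. *Glud1* was 328 FPKM in B2D+FF mouse 2, against 221 to 237 in the other 3.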

How the results depend on the processing

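Without fenofibrate, 1 gene in place of 0 passed with a filter of 5 FPKM (*Otc*, limma adjusted p = 0.0401), quantile normalization (*Cps1*, 0.0351) or voom (*Otc*, 0.0376), and 0 to 1 when a mouse was left out. With fenofibrate, 0 in place of 3 passed with no filter, where 24746 genes were tested, and 1 (*Asl*) with upper-quartile scaling or all 4 groups in 1 fit. Quantile normalization and array weights added *Cps1* to the 3. Leaving out a mouse gave 0 to 3 calls, and the 3, without B2D+FF mouse 2, were *Cps1*, *Asl* and *Arg1*. The difference between experiments gave 0 calls in all 26 alternatives. Signs reversed for *Ass1* without fenofibrate (upper quartile -0.0203, leaving out mice -0.101 to 0.15), *Gls2* with it (array weights 0.0667, leaving out mice -0.246 to 0.0759), and, for the difference, under quantile normalization (*Nags* -0.0385, *Cps1* -0.0287, *Gls2* -0.0776) and leaving out mice (*Gls2* -0.0743 to 0.248, *Otc* -0.321 to 0.124, *Cps1* -0.00749 to 0.311). No other member reversed in the alternatives run. The members' median without fenofibrate, -0.0684, ranged from -0.164 to 0.053. Over all genes, calls without fenofibrate numbered 313, against 67 with no filter, 208 with upper-quartile scaling, 777 with all groups in 1 fit and 98 to 332 without a mouse. With fenofibrate they numbered 529, against 272 with no filter, 885 with array weights and 175 to 596 without a mouse, and upper-quartile scaling put 213 of 560 calls higher against 266 of 529. For the difference they numbered 16, against 6 with a filter of 5 FPKM, where the median of all genes was 0.102, 112 with array weights and 8 to 44 without a mouse. Apart from the number of genes or mice, the cause of these changes was not tested. No paired analysis was possible because the labels pair no mice.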
